A study of Mus musculus with 6 samples.

Results

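The 10 genes described here encode enzymes that remove reactive oxygen species, the transcription factor NRF2 and targets of NRF2. They were taken by symbol from the table deposited for this experiment, which lists 54721 transcripts under 23276 gene symbols. All 10 genes were found, in 11 transcripts, since *Gclc* was listed with 2. Superoxide is made in mitochondria and by oxidases at membranes, and superoxide dismutases turn it into hydrogen peroxide. Glutathione peroxidases and peroxiredoxins then reduce the peroxide with electrons from glutathione or thioredoxin. NRF2, encoded by *Nfe2l2*, is held in the cytoplasm and degraded through KEAP1, and upon oxidative or electrophilic stress it enters the nucleus and activates genes for glutathione synthesis, quinone reduction and heme breakdown. The kidney tubule consumes much oxygen, and its proximal part is the main source of the glutathione peroxidase found in plasma.

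RNA of whole kidneys was sequenced from 3 mice of the genotype KspCre; Pkd1 F/RC (*Pkd1* F/RC SKO, for single knockout) and 3 mice that also carried miR17~92 F/F (*Pkd1* F/RC DKO, for double knockout), all at 22 days after birth per the labels. In both groups a floxed *Pkd1* allele was paired with the hypomorphic RC allele, so that neither group was a healthy control. KspCre is a Cre recombinase driven by a promoter of kidney tubule epithelium, and the miR-17~92 cluster was targeted in those cells and not in vessels, stroma or blood. The question put to these kidneys was what the loss of the cluster changes in a model of polycystic kidney disease. The 4 columns of the table that compare DKO with SKO hold the authors' own test and were not used here. The remaining measurement was the mean abundance of each transcript over the 6 libraries in CPM, the reads of a transcript scaled to a common library size, as the authors deposited it. No difference between DKO and SKO kidneys is therefore given, and a gene that differed between the groups is represented by a value between their levels. The depth of each library, the SD between kidneys and the values of single kidneys are unknown here, so no order between neighbouring genes was tested.

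The tissue label was checked against markers of kidney cell types. All 5 proximal tubule markers were present, from *Slc22a6* at 81.8 CPM to *Slc34a1* at 1030 CPM, as were both markers of the thick ascending limb, *Slc12a1* at 618 CPM and *Umod* at 1022 CPM. *Slc12a3* and *Pvalb* of the distal convoluted tubule stood at 169 and 3.14 CPM, and the 3 collecting duct markers at 14.1 to 77.7 CPM. Podocyte markers ranged from 13.0 to 130.6 CPM, endothelial markers from 27.0 to 52.7 CPM and fibroblast markers from 44.8 to 307 CPM. Macrophage markers with a listed transcript (3 of 4, without *Adgre1*) ranged from 5.19 to 25.3 CPM. Those of red cell precursors (2 of 3, without *Hbb-bt*) stood at 1.11 and 20.1 CPM. Another beta globin gene, listed as *Beta-s* (a RefSeq synonym of *Hbb-bs*) and looked up after its value was seen, had 258 CPM. The 3 adrenal cortex markers were all under 1 CPM, and the 3 liver markers reached at most 13.4 CPM. In RNA of a whole kidney, fewer cells of a type and less RNA per cell cannot be told apart.

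The miRNAs of the cluster that the DKO mice were bred to lose are shown first, because the 3′-UTRs of the 10 genes were searched for their seeds. The mature sequences are those of RefSeq (GRCm38.p6, chr14, forward strand), from 5′ to 3′ with the seed, bases 2 to 8, in capitals.

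mmu-miR-17-5p: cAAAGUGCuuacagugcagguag
mmu-miR-20a-5p: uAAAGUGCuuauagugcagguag
mmu-miR-18a-5p: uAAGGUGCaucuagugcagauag
mmu-miR-19a-3p: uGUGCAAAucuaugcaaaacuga
mmu-miR-19b-3p: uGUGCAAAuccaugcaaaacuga
mmu-miR-92a-3p: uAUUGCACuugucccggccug

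miR-17 and miR-20a share a seed, as do miR-19a and miR-19b, which leaves 4 seeds among the 6 miRNAs. A match to the shared seed of miR-17 and miR-20a, GCACTTT, was found in the 3′-UTR of none of the 10 genes and in 11.5% of the 18297 3′-UTRs searched. Matches to any of the 4 seeds were found in 4 of the 10 genes, *Sod2*, *Sod3*, *Gpx1* and *Gclc*, and in 27.4% of all 3′-UTRs. The miR-18a match, GCACCTT, was held by 3 of the genes and by 7.58% of all 3′-UTRs. The 5 matched sites are printed below on the strand of the gene, with the 7 matched bases in capitals and mm10 positions of the capitals.

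*Sod2*, miR-18a, chr17:13016053-13016059: tgggtgtggtgGCACCTTtctcagtagcg
*Sod3*, miR-18a, chr5:52369167-52369173: cttcccagtgaGCACCTTtgagagtactc
*Gclc*, miR-18a, chr9:77793749-77793755: ccgtgggtgagGCACCTTacctgtgatat
*Gpx1*, miR-19a and miR-19b, chr9:108340214-108340220: tttcctctaaaTTTGCACggagaaacacc
*Sod2*, miR-92a, chr17:13016921-13016927: tattcatatgaGTGCAATgtagctgtctt

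The 3′-UTRs differed widely in length. That of *Sod2* was 4963 nucleotides long, longer than 96.5% of all 3′-UTRs, and held 2 of the 5 matches. Those of *Sod3* and *Gclc*, the other genes with a miR-18a match, measured 2702 and 1234 nucleotides. They were longer than 85.2% and 61.4% of all 3′-UTRs. The shares of all 3′-UTRs given above were not matched for length. That of *Sod1*, at 72 nucleotides, was the shortest of the 10 and held none. The *Gpx1* match lay at positions 78 to 84 of a 3′-UTR of only 207 nucleotides. The *Gclc* site was the only one of the 5 followed by an A, the base that faces the first base of the miRNA. The 3′-UTRs of *Gpx3*, *Prdx3*, *Nfe2l2*, *Nqo1* and *Hmox1* ranged from 448 to 719 nucleotides, under the median of 849, and held no match. A match is a description of the sequence, and no binding was measured.

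**Figure D1:**
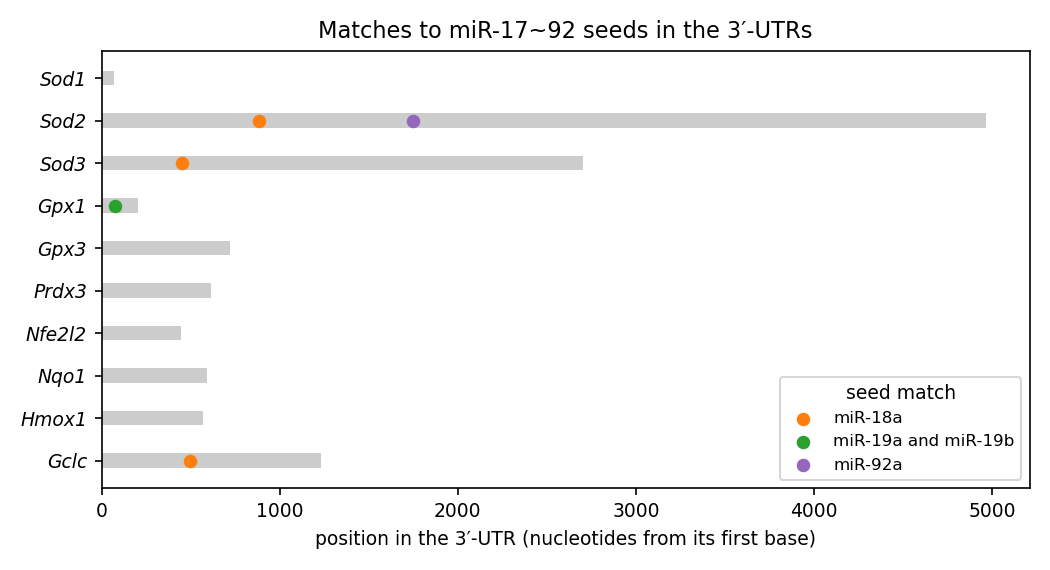
Length of the 3′-UTR of each gene in nucleotides (grey bars, horizontal axis) with the start of each 7-base match to a miR-17~92 seed (points, coloured by miRNA). Of the 5 matches, 2 lie in the 4963-nucleotide 3′-UTR of *Sod2*, and none is to the seed of miR-17.

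Among the peroxidases, *Gpx3* stood far apart. It encodes the secreted glutathione peroxidase of plasma, a selenoprotein that the kidney releases into blood, and it lies on the forward strand of chr11:54902453-54910377 in mm10 with 5 exons. Its transcript NM_008161 had a mean of 6214 CPM, the highest of all 23276 gene symbols with 1 transcript per gene. *Gpx3* took 88.6% of the CPM summed over the 10 genes. Together the 10 took 1.89% of the CPM summed over all gene symbols with 1 transcript per gene. *Gpx3* was listed with 1 transcript, but *Slc34a1*, for example, with 8, the highest at 1030 CPM. How reads were shared between transcripts of a gene is unknown, so these ranks and shares hold for single transcripts. Long transcripts yield more reads than short ones, so genes were compared with each other as mean CPM per kilobase of transcript. With a transcript of 1594 nucleotides, *Gpx3* had 3899 CPM per kilobase and was second among the 22776 symbols with a known length. The gene above it was *Kap*, which encodes an androgen-regulated protein of the mouse proximal tubule, at 6640 CPM per kilobase.

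*Gpx1* encodes the glutathione peroxidase of the cytosol and mitochondria, also a selenoprotein, and lies on the forward strand of chr9:108338903-108340343 with 2 exons. Its mean was 227 CPM, or 212 CPM per kilobase, above 99.7% of genes and second among the 10. The level of *Gpx3* per kilobase was 18.4 times that of *Gpx1*. *Prdx3*, a peroxiredoxin of the mitochondrial matrix, lies on the reverse strand of chr19:60864051-60874556 with 7 exons. It had 52.7 CPM and 35.6 CPM per kilobase, above 96.8% of genes. Between these 3 peroxidases the levels per kilobase thus spanned a range of 109 times. No 51-base window of their transcripts, the length of a read, occurred in a transcript of another gene.

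**Figure D2:**
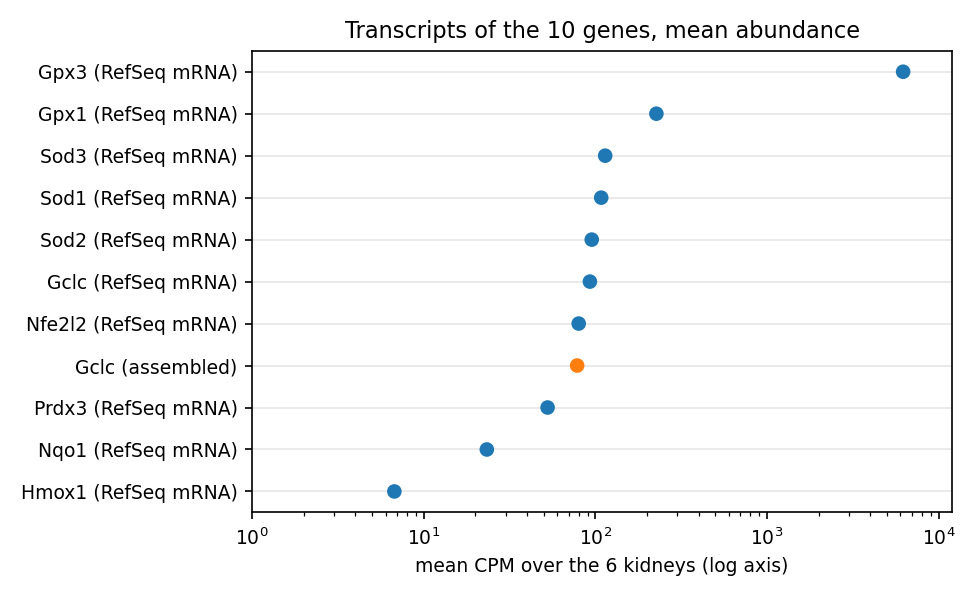
Mean abundance of the 11 transcripts of the 10 genes over the 6 kidneys, in CPM on a log axis (blue, RefSeq mRNA; orange, transcript assembled from the reads). *Gpx3* stands at 6214 CPM, the next gene, *Gpx1*, at 227 CPM and the lowest, *Hmox1*, at 6.74 CPM; no error can be drawn because the deposited value is a mean over kidneys.

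The 3 superoxide dismutases had similar shares of the reads but not similar levels per length. *Sod1*, the copper and zinc enzyme of the cytosol, had 108 CPM, *Sod2*, the manganese enzyme of the mitochondrial matrix, had 95.3 CPM, and *Sod3*, the secreted enzyme that binds to the extracellular matrix, had 114 CPM. Their transcripts measured 641, 5861 and 3738 nucleotides. Per kilobase, *Sod1* therefore led with 168.8 CPM, above 99.5% of genes, followed by *Sod3* with 30.5 CPM and *Sod2* with 16.3 CPM. The level of *Sod1* per kilobase was 10.4 times that of *Sod2* and 5.53 times that of *Sod3*.

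The order of the dismutases leaned on the transcript length used. The deposited *Sod1* transcript, NM_011434, matched the annotated one of 641 nucleotides by RefSeq identifier. *Sod1* has a longer annotated transcript of 3970 nucleotides, and divided by that length its level was 27.2 CPM per kilobase, which moved it from the third to the sixth place among the 10 genes and below *Sod3*. Of the 51-base windows of the *Sod1* transcript, 22.5% also occurred in *Gm8566*, and reads from these windows could have been discarded by the filter on mapping quality. For *Sod2* this share was 1.38%, spread over transcripts of 342 other genes, and for *Sod3* it was 0. *Sod1* lies on chr16:90220754-90226329, *Sod2* on chr17:13006846-13040063 and *Sod3* on chr5:52363791-52371418, all on the forward strand, with 5, 5 and 2 exons.

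*Nfe2l2* itself was well expressed at the RNA level. It lies on the reverse strand of chr2:75675513-75704641 with 5 exons, and had 80.0 CPM, or 32.3 CPM per kilobase, above 96.5% of genes. NRF2 is controlled largely by degradation of the protein, which RNA does not show. Of its 3 targets among the 10 genes, *Gclc* was the highest. *Gclc* encodes the catalytic subunit of glutamate-cysteine ligase, the rate-limiting enzyme of glutathione synthesis, and lies on the forward strand of chr9:77754535-77794485 with 16 exons. Its RefSeq transcript NM_010295 had 92.9 CPM and its second transcript, assembled from the reads, had 78.3 CPM, or 84.3% of the first. Among all genes with at least 2 transcripts and at least 1 CPM, 92.7% had a second transcript above 50% of the first. Per kilobase, the RefSeq transcript of *Gclc* had 27.2 CPM, above 95.7% of genes.

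The classic stress-inducible targets were lower. *Nqo1*, which encodes a quinone reductase, lies on the reverse strand of chr8:107388225-107403206 with 6 exons and had 23.3 CPM, or 15.0 CPM per kilobase, above 91.7% of genes. *Hmox1*, which encodes the inducible heme oxygenase that opens the heme ring, lies on the forward strand of chr8:75093621-75100589 with 5 exons. It had 6.74 CPM and 4.30 CPM per kilobase, the lowest of the 10 genes, above 73.2% of all genes and above 52.3% of the genes with at least 1 CPM. The level of *Nqo1* per kilobase was 3.49 times that of *Hmox1*, and that of *Gpx3* was 907 times that of *Hmox1*.

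Placed among all genes, 9 of the 10 were within the highest 10% per kilobase, with *Hmox1* as the exception. Their median was 31.4 CPM per kilobase, whereas the median over all 22776 genes with a length was 0.917 and that over the 12735 of these with at least 1 CPM was 4.004. Among the genes with at least 1 CPM, 7 of the 10 were within the highest 10%, and *Sod2*, *Nqo1* and *Hmox1* were not. Below *Gpx3* came *Gpx1* and *Sod1*, and the other 7 lay between 4.30 and 35.6 CPM per kilobase, a range that also held *Sod1* (27.2) when its longest annotated transcript was taken as length. No exon of these transcripts overlapped an exon of another annotated gene on either strand.

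**Figure D3:**
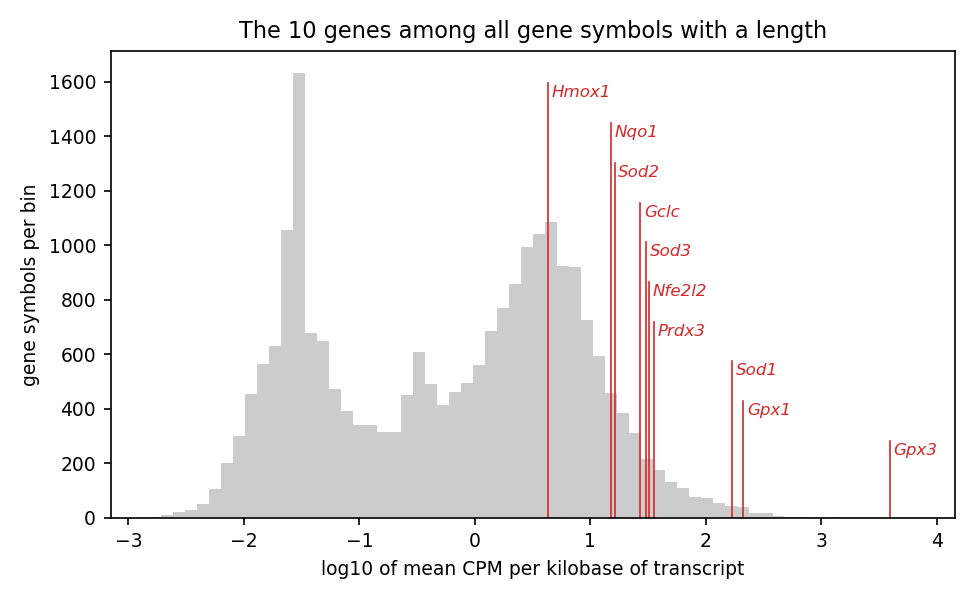
Distribution of mean CPM per kilobase over the 22776 gene symbols with a length (grey histogram, log10 scale; vertical axis, number of symbols per bin), with the 10 genes as red lines whose heights only make room for the names. *Gpx3* is at the far right of the distribution and *Hmox1*, at 4.30 CPM per kilobase, is near the 4.004 median of the genes with at least 1 CPM.

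Promoters of 250 bases before to 50 bases after the start of transcription (RefSeq, GRCm38.p6) were given for 7 of the 10 genes, all but *Sod3*, *Hmox1* and *Gclc*. They were searched on both strands for TGACNNNGC, the core of the antioxidant response element to which NRF2 binds as a dimer with a small MAF protein. The core was found in 2 of the 7, *Nfe2l2* and *Sod1*, and in 12.4% of 32851 promoters of this length. The matches in the 7 searched windows are printed below, with the core in capitals on the strand of the gene.

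*Nfe2l2*, chr2:75704875-75704913, reverse strand: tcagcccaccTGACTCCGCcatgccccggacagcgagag
*Sod1*, chr16:90220686-90220734, forward strand: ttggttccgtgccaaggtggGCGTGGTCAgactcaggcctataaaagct

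The *Sod1* match reads as the core on the opposite strand and begins 56 bases before the start, and that of *Nfe2l2* begins 240 bases before it. The windows of *Gpx1*, *Gpx3*, *Prdx3*, *Nqo1* and *Sod2* held no match, which says only that these letters are not within this window. The GC content of the 7 windows ranged from 47.0% for *Gpx1* to 68.7% for *Nfe2l2*, beside a median of 52.7% over all promoters. The *Sod1* window had 34 CpG dinucleotides and that of *Nqo1* had 5, beside a median of 7.

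Other genes of the same pathways were described from lists, each by its highest and lowest member per kilobase. For the counts of genes with at least 1 CPM, the background is 13001 of all 23276 gene symbols. The list of peroxide removal held 12 further glutathione peroxidases, peroxiredoxins and catalase, of which 10 had at least 1 CPM, with a median of 15.4 CPM per kilobase. The highest, at 134 CPM per kilobase, was *Prdx5*, a peroxiredoxin of mitochondria, peroxisomes and cytosol. *Gpx4* and *Prdx1* were nearly equal to it, each at 133 CPM per kilobase. Without length *Prdx1* was the highest of the list, at 304 CPM beside 244 for *Prdx5*. The lowest was *Gpx5*, an enzyme of the epididymis, which stood at 0.0263 CPM, the lowest value in the table. That value is a floor shared by 4617 transcripts, so levels at it cannot be told apart. The level of *Gpx3* was thus above that of every gene of this list. Among 12 genes of the thioredoxin and glutaredoxin systems the median was 7.04 CPM per kilobase, and all 12 had at least 1 CPM. *Txnip*, which encodes an inhibitor of thioredoxin, was highest at 81.5 CPM per kilobase, and *Txnrd2*, the mitochondrial thioredoxin reductase, was lowest at 2.49.

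Glutathione supply was described with 8 genes, 6 of them with at least 1 CPM and a median of 16.6 CPM per kilobase. *Gpx4*, the phospholipid hydroperoxide glutathione peroxidase, was highest at 133 CPM per kilobase, though it uses glutathione and does not supply it. Next was *Ggt1* at 66.2 CPM per kilobase. Without length *Ggt1* was the highest, at 143.5 CPM beside 132 for *Gpx4*. *Slc7a11*, the cystine transporter, was lowest per kilobase at 0.0430 CPM. Without length *Chac1* was the lowest, at 0.354 CPM beside 0.397 for *Slc7a11*. *Gclm*, the modifier subunit that pairs with the *Gclc* product and was named for that role, had 15.3 CPM per kilobase, beside 27.2 for *Gclc*. Without length they stood close, at 85.3 and 92.9 CPM. The length used for *Gclm*, 5589 nucleotides, was that of its longest annotated transcript, whereas *Gclc* had a RefSeq match of 3423 nucleotides. All 11 genes that control NRF2 or share its partners had at least 1 CPM, with a median of 4.37 CPM per kilobase. They ranged from 0.372 for *Bach2*, a repressor at the same DNA elements, to 52.7 for *Sqstm1*, the autophagy receptor that binds KEAP1. Without length the lowest was *Maff* at 2.85 CPM and the highest *Nfe2l1* at 127 CPM. *Keap1*, also named for its role, had 5.45 CPM per kilobase, beside 32.3 for *Nfe2l2*.

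Of 19 other genes often listed as NRF2 targets, 17 had at least 1 CPM and 12 were within the highest 10% of all genes per kilobase. Their median was 20.9 CPM per kilobase. The highest was *Ftl1*, a subunit of the iron store ferritin, at 631 CPM per kilobase, and the lowest was again *Slc7a11*. Without length *Fth1* was the highest, at 651 CPM beside 611 for *Ftl1*. The lists overlap, since *Slc7a11* and *Gclm* are also in that of glutathione supply, *Txnrd1* and *Srxn1* in that of the thioredoxin system, and *Gpx4* in both peroxide removal and glutathione supply. Genes for sources of oxidants had a median of 0.891 CPM per kilobase over 10 genes. Of these, 6 had at least 1 CPM, a share near that of all gene symbols (13001 of 23276). *Cyba*, the p22phox subunit shared by several NADPH oxidases, was highest at 63.9 CPM per kilobase, and *Duox2*, a dual oxidase, was lowest at 0.00954. Without length *Nox4* was the highest, at 162.9 CPM beside 47.5 for *Cyba*. The length used for *Nox4*, 3921 nucleotides, was that of its longest annotated transcript. In CPM, *Duox2* stood at 0.0548, near the lowest deposited value of 0.0263. *Nox1* was lower in CPM, at 0.0459, but has a shorter transcript, so the lowest place rested on length.

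**Figure D4:**
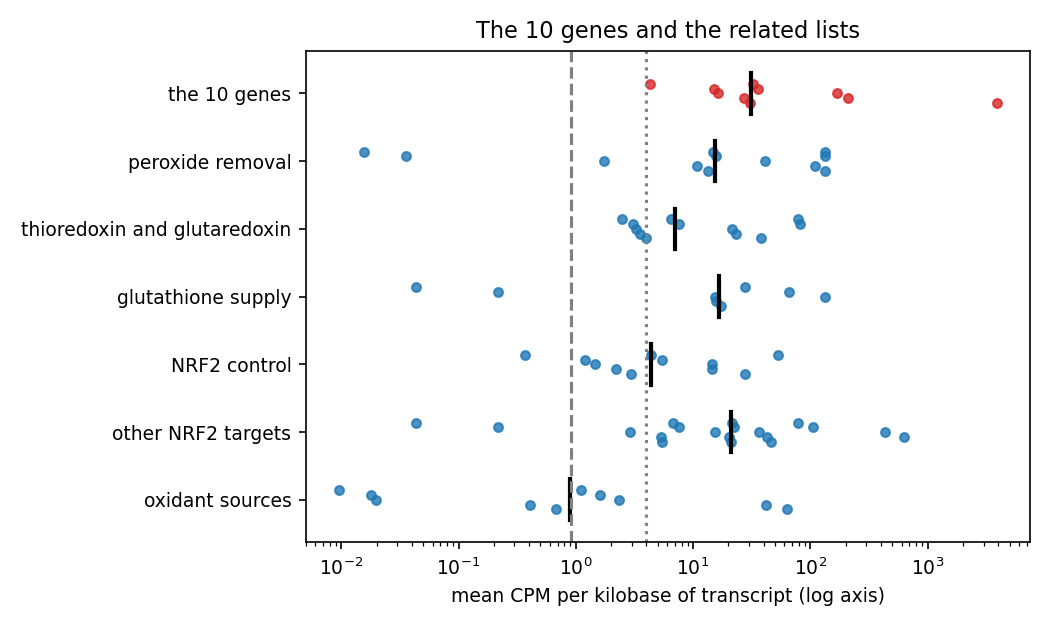
Mean CPM per kilobase of transcript (log axis) of the 10 genes (red) and of the genes of 6 related lists (blue), 1 point per gene, with the median of each list as a black bar. The dashed line is the median of all genes, 0.917, the dotted line that of genes with at least 1 CPM, 4.004, and the median of the 10 genes is 31.4.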

How the data were processed

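Total RNA of 6 mouse kidneys, 3 SKO and 3 DKO, was sequenced by the authors as 51 bp single-end, strand-specific reads. Reads were trimmed and mapped to mm10 with TopHat 2.0.12, and alignments of low mapping quality were discarded. The submitters' processing notes also name featureCounts of Subread 1.4.6 and edgeR 3.2.4. The deposited log2 values used here are the authors' log2 of the mean CPM of each transcript over all libraries. The table's fold changes, statistics and p-values compare DKO with SKO, are the authors' own results and were not used. No value for a single kidney was analysed here, so no test, SD or leave-one-out fit was made.

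Each gene was represented by its transcript of highest mean CPM. The lowest value in the table is 0.0263 CPM, shared by 4617 transcripts. Whether a read overlapping several transcripts was counted for each is not given in the sources used here. Levels were divided by the length of the matching GENCODE M21 transcript (GRCm38, the mm10 assembly), found by RefSeq identifier for 18446 of 22776 symbols and otherwise by the longest transcript of the symbol. 3′-UTRs came from the same annotation. The annotation of the authors may differ in transcript ends.

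The members and gene lists were chosen with earlier results of these data known. From each list, the genes of highest and lowest level and those with no transcript are named. *Keap1* and *Gclm* were added for their role. *Kap*, *Gm8566*, *Prdx1*, *Ggt1*, *Chac1*, *Maff*, *Nfe2l1*, *Fth1* and the genes of the closing observations were added after values were seen. For the cell types, the report gives ranges over all markers. Python 3.11.15 was used with numpy 2.4.6 and pandas 2.3.3. The choice of transcripts, the ranking and the motif pattern were tested on small made-up inputs. The searches for seed matches and shared windows were not tested in this way.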

Additional observations from a re-analysis of the deposited data

How the results depend on the processing

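No error, depth or single-kidney value was available, so a value was called unmoved only where it kept its 3 printed digits, and a count where it stayed within 1.5 times. The number of the 10 genes within the highest 10% was 9 per kilobase with the highest transcript, with RefSeq mRNA transcripts only, with the median transcript and with the longest annotated length. It was 8 when ranked by CPM without length and 7 among genes with at least 1 CPM. The fold of *Gpx3* over *Gpx1*, 18.4 per kilobase, was 27.4 in CPM without length. The stricter motif TGACTCAGC was found in 0 of the 7 promoters and in 0.454% of all promoters. Requiring an A after the seed match left 1 of the 10 genes, *Gclc*, in place of 4, beside 10.7% of all 3′-UTRs. The longest annotated transcript changed the level of *Sod1* and left the other 9 as they were. The median over transcripts changed *Gclc*, to 85.6 CPM, and left the other 9. The percentiles moved more. Those of 9 genes changed among genes with at least 1 CPM, and those of 9 changed when ranked by CPM without length. In these 2 settings *Nqo1* fell from 91.7% to 85.1% and 82.8%, and *Hmox1* from 73.2% to 52.3% and 61.6%. *Sod2*, at 92.4%, fell to 86.4% in the first and rose to 97.2% in the second. Leaving out each replicate, other size factors and a count filter were not run, because each needs values of single kidneys. No paired analysis was possible because the table used here gives only means over all 6 kidneys.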

Other observations

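Within the glutathione peroxidase family, the gut enzyme *Gpx2* stood at 0.0379 CPM and *Gpx5* at the lowest value of the table. *Gpx6*, a close relative of *Gpx3*, was listed at 17.8 CPM, or 13.3 CPM per kilobase, above 90.7% of genes. *Gpx7* and *Gpx8*, of the endoplasmic reticulum, had 2.24 and 16.5 CPM. No 51-base window of the *Gpx3* transcript occurred unaltered in a transcript of *Gpx6* or of any other gene. Windows with mismatches were not searched, and whether reads of *Gpx3* were counted for *Gpx6* was not tested. These genes were named after their values were seen.

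Among the sources of oxidants, *Nox4*, the NADPH oxidase most typical of kidney tubules, had 162.9 CPM, or 41.5 CPM per kilobase. *Nox1* stood at 0.0459 CPM and *Duox1* at 0.105 CPM. *Cybb*, the oxidase subunit of phagocytes, had 7.67 CPM. These values too were chosen after they were seen and are means over both groups of mice.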
